A study of Mus musculus with 8 samples.

Results

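The genes described here are 8 antiviral effectors of the interferon response, Ifit1, Ifit2, Ifit3, Ifitm1, Ifitm2, Ifitm3, Bst2 and Isg15, out of 21938 protein-coding genes of the annotation. They were chosen by name. For each gene, the ATAC-seq peaks that overlapped the gene body or the 3 kb on either side of it were taken from the 8 deposited peak lists. Each list came from the cerebral cortex of 1 male C57BL/6 mouse, and 4 sham mice were set against 4 mice with bilateral carotid artery stenosis (BCAS), a model of chronic cerebral hypoperfusion. BCAS was made at 11 weeks of age with microcoils around both common carotid arteries, with an inner diameter of 0.16 mm on the right and 0.18 mm on the left, and sham mice had the arteries exposed without coils. The tissue was taken 3 weeks later, at 14 weeks. The labels name the right cerebral cortex, whereas the quality control sheet of the study names the whole cortex without cerebellum and olfactory bulb, so the side is not certain. The labels give no other difference between the groups and name no transgene or allele. ATAC-seq marks DNA that a transposase can reach, and in bulk tissue more cells of an accessible type cannot be told apart from more accessibility per cell.

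Type I interferon signals through its receptor to transcription factors, STAT2 and IRF9 among them, that bind the interferon-stimulated response element (ISRE) near their target genes. IFIT proteins bind viral RNA and hold back its translation, IFITM proteins sit in membranes and hinder fusion of virus with the cell, BST2 (tetherin) holds budding virus at the cell surface, and ISG15 is a ubiquitin-like protein that is joined to other proteins. In brain the response is known from microglia, endothelial cells and neurons exposed to interferon.

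None of the 7 member loci that could be tested was called longer or shorter by covered length, the bases under peaks. Of all 17035 protein-coding loci tested with limma, 3.16% were longer and 0.376% shorter in BCAS at an adjusted p under 0.05. Ifitm1 held no peak in any library. Differences at these genes were seen in single regions. The peak over the start of Bst2 was higher in BCAS. A weak peak over exon 3 of Bst2 was shorter or absent, a call that was lost in most alternatives. In the Ifitm gene cluster, 5 regions outside the windows of its members had a peak in all 4 BCAS libraries and in no sham library.

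The ISRE core searched was GAAANNGAAA on either strand, where N is any base, so that on the opposite strand it reads as TTTC, any pair of bases and TTTC. In the RefSeq promoters (GRCm38.p6, 250 bases before to 50 after each start), 6 of the 8 members held it, namely Ifit1, Ifit3, Ifitm2, Ifitm3, Bst2 and Isg15, against 3.99% of the 27025 genes in the promoter table. Ifit2 and Ifitm1 held none in this window. The sequences below are those that the peak results turn on. They run 5′ to 3′ on the strand of the gene, come from the reference genome of build GRCm38 (mm10), and carry the ISRE core in capitals. The first lies between the divergent starts of Ifit1bl2 and Ifit1, the next 3 lie directly upstream of the starts of Ifit3, Bst2 and Isg15, and the last is intronic sequence that ends at the second exon of Ifit2.
Ifit1, chr19:34640744-34640870, plus strand: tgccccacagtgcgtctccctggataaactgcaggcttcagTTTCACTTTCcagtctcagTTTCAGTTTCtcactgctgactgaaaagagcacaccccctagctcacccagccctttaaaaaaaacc
Ifit3, chr19:34583329-34583528, plus strand: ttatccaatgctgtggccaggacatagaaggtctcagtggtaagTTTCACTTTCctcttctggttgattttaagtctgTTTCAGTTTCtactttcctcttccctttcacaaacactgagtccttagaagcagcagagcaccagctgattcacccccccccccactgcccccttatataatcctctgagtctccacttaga
Bst2, chr8:71537473-71537622, minus strand: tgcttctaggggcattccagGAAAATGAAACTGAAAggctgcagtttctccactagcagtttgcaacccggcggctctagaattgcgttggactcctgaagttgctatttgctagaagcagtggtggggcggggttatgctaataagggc
Isg15, chr4:156200819-156200968, minus strand: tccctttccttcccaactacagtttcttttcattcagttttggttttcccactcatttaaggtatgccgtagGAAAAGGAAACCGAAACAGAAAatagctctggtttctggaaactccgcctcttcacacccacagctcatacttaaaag
Ifit2, chr19:34570069-34570218, plus strand: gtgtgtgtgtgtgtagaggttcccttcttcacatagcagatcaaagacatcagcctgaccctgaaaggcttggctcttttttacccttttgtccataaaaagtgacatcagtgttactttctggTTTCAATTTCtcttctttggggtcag

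The Ifit1, Ifit3 and Bst2 windows each held 2 copies of the core, that of Isg15 held 3 overlapping copies, and the Ifit2 intron held 1. The cores of Ifitm3, attcagGAAAAGGAAActtctg and ttctgaGAAACCGAAActgccg, started 2 and 19 bases after its RefSeq start, and the core of Ifitm2, caacagGAAAAGGAAAttgcta, lay 46 bases before its RefSeq start. Among the 7 other genes of both families 3 had the core in a promoter, and among 22 other interferon-stimulated effectors with a RefSeq promoter 9 had it. The GAS core searched (TTCNNNGAA) was found in the promoters of Ifit2, Ifitm3 and Bst2, and in 8.3% of all 32851 promoter windows. At Bst2 and at Ifitm3 it overlapped an ISRE core. The PU.1 core GAGGAAGT and the composite core GGAANNGAAA, which shares its last 4 letters with the ISRE core, were found in no member promoter. They were found in 3.2% and 2.72% of all promoter windows, so their absence from so few genes is no contrast.

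The 8 libraries held 107391 to 160720 peaks on the 21 chromosomes used, covering 44.5 to 66.3 Mb, with BCAS 1 highest in both and sham 1 and sham 4 lowest. Peaks of all libraries that overlapped were merged into 197916 regions, of which 36.2% had a peak in every library. The libraries fell into 2 classes of read GC content, with sham 1 to 3 and BCAS 1 in the higher class and sham 4 and BCAS 2 to 4 in the lower. Of 15 microglia markers, which label the resident macrophages of the brain, 3 had longer covered length, namely Itgam, Tyrobp and Trem2 (log2 differences of 2.36, 1.14 and 0.68, adjusted p = 0.00041, 0.0095 and 0.018), and none of the markers of the other 6 cell types passed. Itgam reached the minimum length for testing through the BCAS libraries alone. The summed length of the microglia markers, scaled to the library totals, was 22.0 to 29.1 kb in sham and 29.6 to 32.9 kb in BCAS, that of the endothelial markers was 16.5 to 21.7 kb in sham and 21.8 to 26.1 kb in BCAS, and that of the 11 lymphocyte markers was 0.97 to 1.72 kb in sham and 2.56 to 2.72 kb in BCAS. These sums did not overlap between the groups. For microglia they came closest at sham 4 (29.1 kb) and BCAS 4 (29.6 kb), where Itgam had 0 and 490 bp of peaks. The separation of the microglia sums thus rests on Itgam and is given no weight. How often sums of other gene lists separate was not counted. The sums of the other 4 lists did, at 5.23 to 6.66 kb in sham and 5.23 to 6.13 kb in BCAS for border macrophages and monocytes, 21.4 to 24.8 and 22.6 to 26.1 kb for astrocytes, 18.2 to 24.2 and 19.2 to 21.6 kb for oligodendrocytes, and 61.2 to 67.1 and 54.6 to 67.2 kb for neurons. Cd8a, Cd8b1, Ms4a1, Cd79b and Ncr1 had no peak in any library, and neither did Ms4a7, Ly6c2 and S100a9 of the border macrophage and monocyte list. The part of these cell types in the results below was not tested.

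The member loci differed widely in how open they were. A peak lay over the annotated start of Ifit1, Ifit2, Ifit3 and Bst2 in all 8 libraries, and over that of Ifitm2 in 7. The start of Ifitm3 was covered in BCAS 1 alone, and those of Isg15 and Ifitm1 were covered in no library. Of all protein-coding genes, 49.5% had a peak over the start in every library and 40.2% in none. The 8 member windows held 15 merged regions, of which 8 had a peak in all 8 libraries. Within 100 bp of their middle, 4 of the 15 held an ISRE core (the starts of Ifit1, Bst2 and Ifitm3 and the second exon of Ifit2), as did 2.95% of all merged regions.

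**Figure D1:**
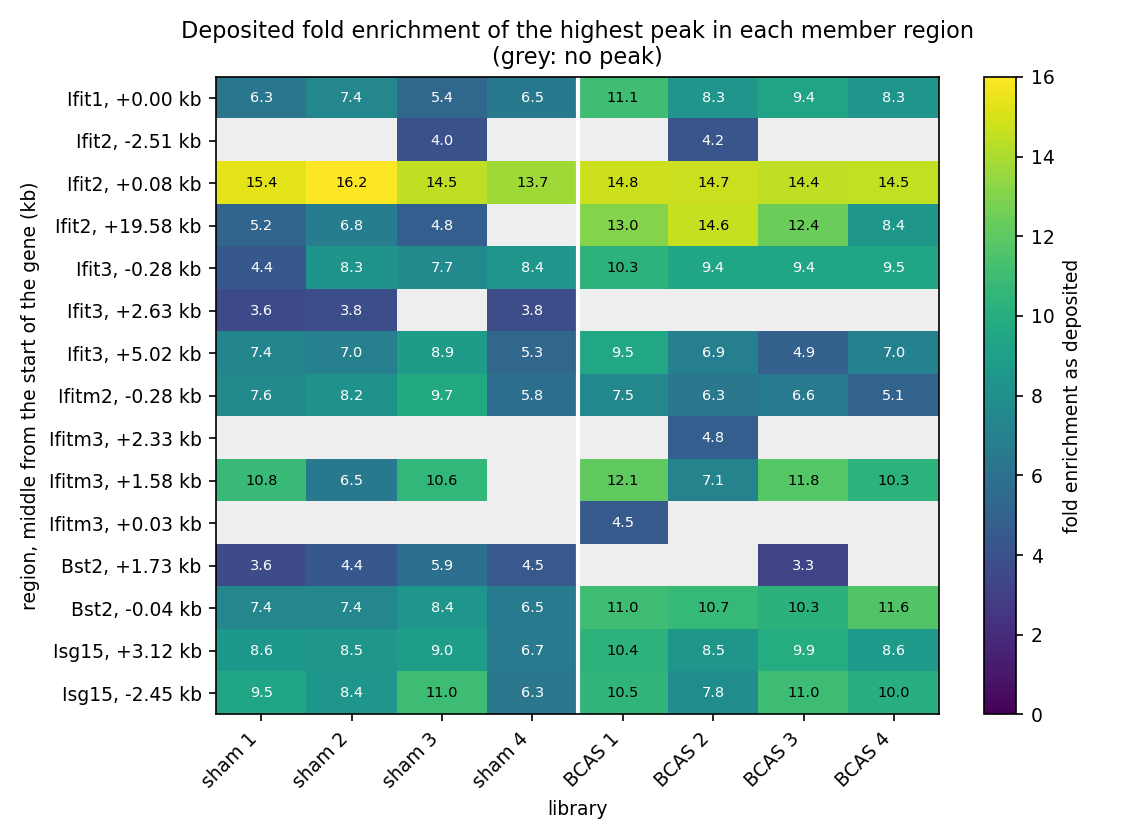
Fold enrichment as deposited for the highest peak in each of the 15 merged regions (rows, labelled by the distance of their middle from the start of the gene in kb) in each of the 8 libraries (columns), with grey where a library had no peak. The peak over the start of Ifit2 was the highest of all, and the region 1.73 kb inside Bst2 was filled in all 4 sham libraries and in BCAS 3 alone.

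Ifit2, which encodes an RNA-binding IFIT protein, spans chr19:34550694-34576419 on the plus strand, and its window also holds the processed pseudogene AC102249.1. Its peaks covered 992, 1107, 1160 and 637 bp in sham 1 to 4 and 1275, 1334, 1300 and 1343 bp in BCAS 1 to 4. Every BCAS value was above every sham value before scaling, but after scaling to the library totals the groups overlapped, at 1000 ± 176 bp in sham and 1295 ± 191 bp in BCAS (SD, n = 4 each). The difference was 0.32 ± 0.14 (SE) on the log2(scaled bp + 200) scale and did not pass the test (limma, adjusted p = 0.295). Within the higher GC class it was -0.07 and within the lower class, where sham 4 was the only sham library, it was 0.73.

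Neither the start nor the second exon of Ifit2 was called, and the difference between these 2 regions was not tested. The peak over the start had a fold enrichment of 15.4, 16.2, 14.5 and 13.7 in sham and 14.8, 14.7, 14.4 and 14.5 in BCAS, and its height stood at the 94.2 percentile of regions called in every library (median over the libraries). Fold enrichment here is the height of a peak over the local background as the peak caller gave it, and it was compared after quantile normalization. The normalized heights did not differ beyond their spread (log2 difference -0.04 ± 0.07 SE, adjusted p = 0.86). The second region, chr19:34569997-34570546, lay over exon 2 of 3 (34570219 to 34570370) and the intron before it, and it held the intronic ISRE core printed above. Its peaks covered 242, 282, 202 and 0 bp in sham and 453, 396, 489 and 550 bp in BCAS, with a fold enrichment of 5.2, 6.8 and 4.8 in the 3 sham libraries that had the peak and 13.05, 14.6, 12.4 and 8.4 in BCAS. Its covered length, also after scaling, was longer in every BCAS library than in every sham library, as it was at 4.43% of the regions tested. Sham 4 had no peak here and thus no fold enrichment to compare. Over 142592 regions called in at least 3 libraries, of which 2.58% were longer and 0.241% shorter in BCAS, its covered length was not called (log2 difference 0.87 ± 0.28 SE, adjusted p = 0.214). A further region 2.51 kb upstream of the start had a peak in sham 3 and BCAS 2 only.

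**Figure D2:**
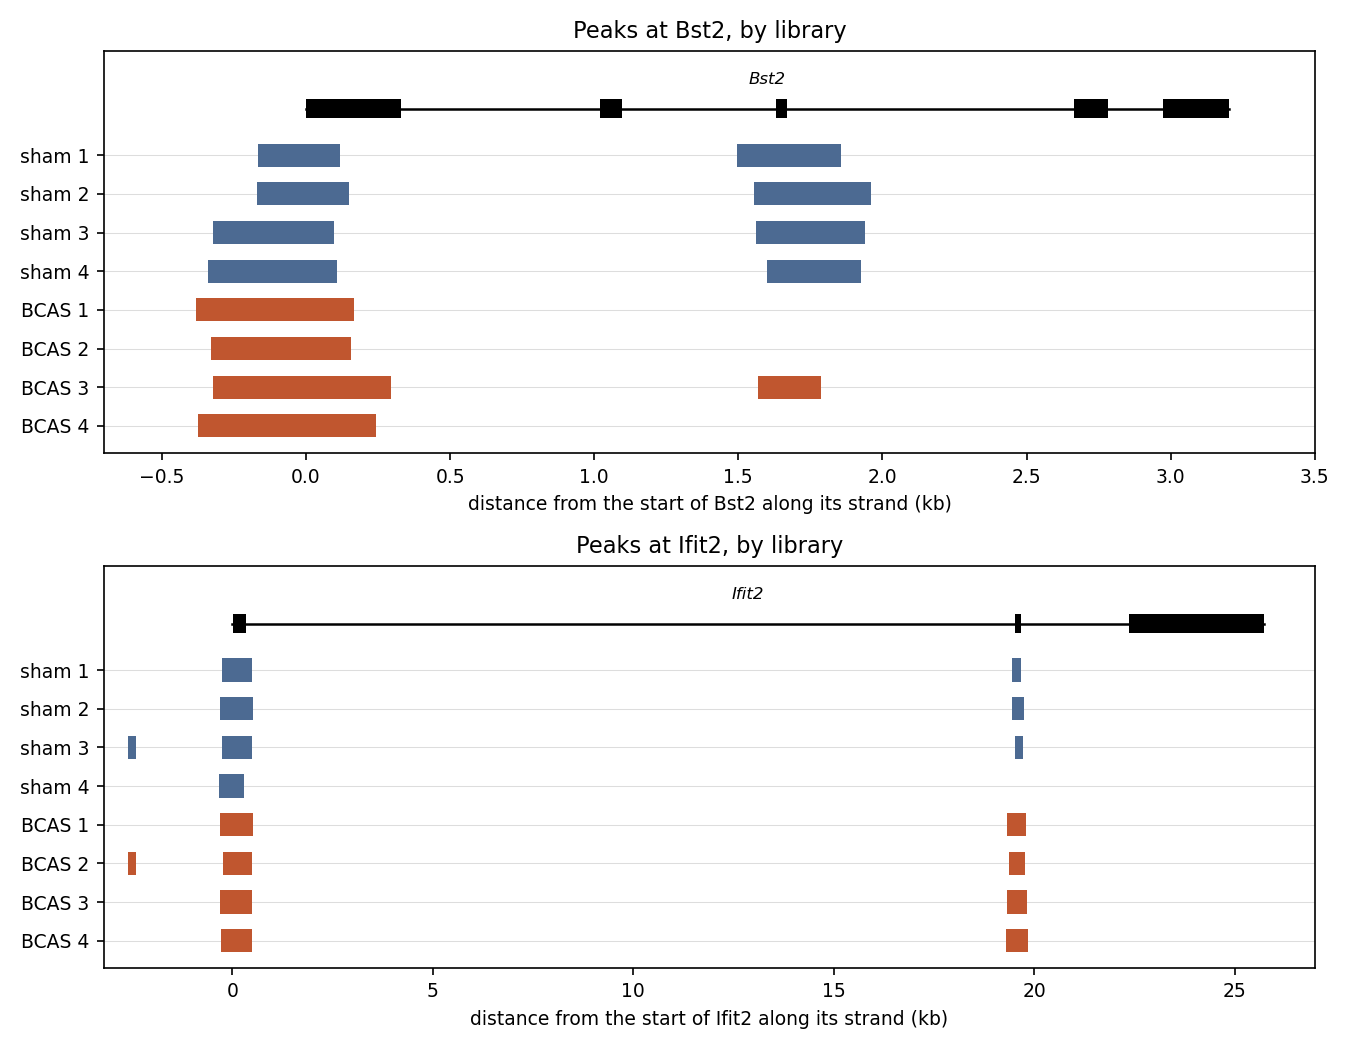
Peaks of each library as bars (blue, sham, and orange, BCAS) along Bst2 and Ifit2, with exons as black boxes, against the distance from the start of each gene along its strand in kb. The bars over exon 3 of Bst2 are present in 4 sham libraries and 1 BCAS library, and those over the second exon of Ifit2 are longer in the 4 BCAS libraries.

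Ifit1, which encodes a binder of viral RNA, spans chr19:34640871-34650009 on the plus strand and held a single region, chr19:34640621-34641122, over its start. The start of Ifit1bl2 on the other strand lies in the same region, so the peak belongs to both. Peaks covered 309, 302, 330 and 354 bp in sham and 426, 364, 480 and 371 bp in BCAS, which after scaling was 341 ± 64 bp and 403 ± 69 bp with overlapping groups (log2 difference 0.16 ± 0.21 SE, adjusted p = 0.84). Its fold enrichment was 6.3, 7.4, 5.4 and 6.5 in sham and 11.1, 8.3, 9.4 and 8.3 in BCAS. All 4 BCAS values lay above all 4 sham values, and this also held after normalization (6.36 ± 1.05 and 9.28 ± 0.77). The adjusted p of the height was 0.056 and just missed the threshold (log2 difference 0.56 ± 0.15 SE). The difference was 0.74 within the higher GC class and 0.31 within the lower. In the 8 libraries the highest point of the peak lay 7 to 70 bp from the nearest ISRE core, with a median of 17.5 bp.

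Ifit3, whose human counterpart binds and stabilises IFIT1, spans chr19:34583531-34588731 on the plus strand. Its peaks covered 959, 1352, 1324 and 1262 bp in sham and 1262, 974, 1415 and 1060 bp in BCAS, and the groups overlapped (log2 difference -0.13 ± 0.14 SE, adjusted p = 0.798). The peak over its start had a fold enrichment of 4.4, 8.3, 7.7 and 8.4 in sham and 10.3, 9.4, 9.4 and 9.5 in BCAS. Sham 1 was lowest by far, and after normalization 1 sham value reached into the BCAS range (log2 difference 0.48 ± 0.18 SE, adjusted p = 0.18). The highest point of this peak lay 3 to 89 bp from an ISRE core. An intronic region at 2.63 kb had a weak peak in sham 1, 2 and 4 and in no BCAS library, a pattern of 3 sham and 0 BCAS libraries that 0.498% of all merged regions shared (covered length, log2 difference -0.88 ± 0.32 SE, adjusted p = 0.267). The region over the end of the gene was called in all libraries, at 7.01 ± 0.997 in sham and 7.05 ± 1.36 in BCAS after normalization (SD, adjusted p = 0.997).

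Bst2, the tetherin gene, spans chr8:71534255-71537456 on the minus strand, and its covered length was 645, 728, 800 and 770 bp in sham and 548, 484, 833 and 619 bp in BCAS. The groups overlapped (log2 difference -0.27 ± 0.18 SE, adjusted p = 0.552), while its 2 regions moved in opposite directions.

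The peak over the start of Bst2, chr8:71537162-71537838, was higher in BCAS. Its fold enrichment was 7.4, 7.4, 8.4 and 6.5 in sham and 11.03, 10.7, 10.3 and 11.6 in BCAS, with no overlap. After normalization the heights were 7.34 ± 0.34 and 10.9 ± 0.9 (SD, n = 4 each), a log2 difference of 0.57 ± 0.12 (SE, adjusted p = 0.0138). It was the only one of the 8 member regions tested for height that passed, where 1.44% of the 71712 regions called in every library were higher and 0.577% lower in BCAS. Groups did not overlap, with BCAS higher, at this region and at the start of Ifit1, and at 4.8% of all regions tested. The difference at Bst2 was 0.44 within the higher GC class and 0.61 within the lower. With read GC class in the model the adjusted p was 0.095, and without BCAS 4 it was 0.061, at differences of 0.53 and 0.52. The highest point of the peak lay 94 to 142 bp from the nearest ISRE core of the upstream sequence.

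The other region of Bst2, chr8:71535494-71535960, lay 1.73 kb into the gene over exon 3 of 5 (71535786 to 71535825). It had a peak in all 4 sham libraries, with a fold enrichment of 3.6, 4.4, 5.9 and 4.5, and in BCAS 3 alone at 3.3. Its covered length fell in BCAS (log2 difference -1.27 ± 0.28 SE, adjusted p = 0.0449), and 1 of the 12 member regions tested for length was thus called shorter and none longer. It entered the test through its sham libraries alone, so that the call adds little to the pattern of presence. A pattern of 4 sham libraries and 1 BCAS library was shared by 0.591% of all merged regions. The call was lost when any library other than BCAS 3 was left out, with adjusted p between 0.09 and 0.134, and with read GC class in the model (adjusted p = 0.123). The region held none of the 4 motif cores.

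**Figure D3:**
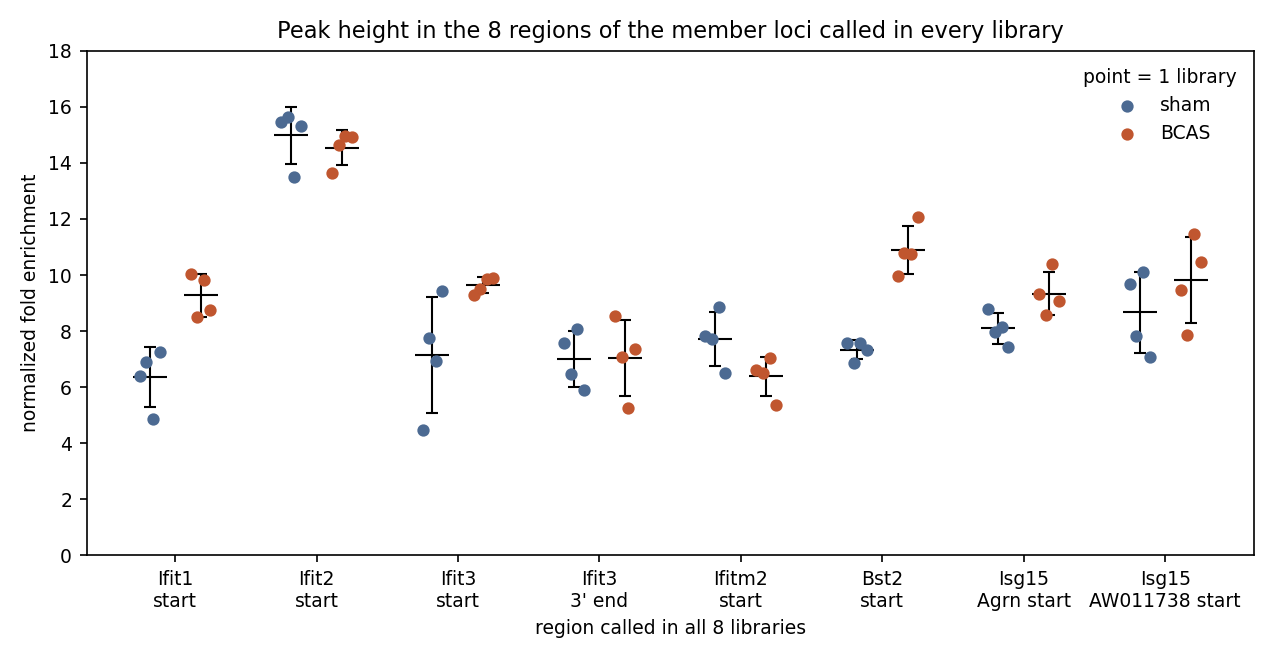
Fold enrichment after quantile normalization (points, 1 per library, with the mean and SD of each group) in the 8 regions of the member loci that every library called. The 4 BCAS points lie above the 4 sham points over the starts of Ifit1 and Bst2.

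Isg15, the ubiquitin-like modifier, spans chr4:156199424-156200818 on the minus strand and had no peak over its start or body in any library, although 3 ISRE cores lie directly upstream. The 1398, 1563, 1679 and 1263 bp counted for it in sham and 1701, 1417, 1341 and 1493 bp in BCAS came from regions over the starts of its neighbours. One is the start of Agrn, which encodes the matrix protein agrin, and the other that of AW011738. Neither the covered length (log2 difference -0.07 ± 0.11 SE, adjusted p = 0.891) nor the heights of these regions (0.20 ± 0.12 and 0.18 ± 0.14 SE, adjusted p = 0.449 and 0.61) passed the test. Of the 4 genes for adding and removing ISG15, Uba7, Ube2l6, Herc6 and Usp18, none was called. The largest difference was at Usp18, the deconjugating protease, with 1382 to 1699 bp in sham and 2141 to 2620 bp in BCAS (log2 difference 0.43 ± 0.14 SE, adjusted p = 0.095), and after scaling the groups overlapped.

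The IFITM members lie in a cluster on chromosome 7 in the order Ifitm5, Ifitm2, Ifitm1, Ifitm3, Ifitm6. Ifitm2, at chr7:140954837-140955987 on the minus strand, had 506, 618, 740 and 336 bp covered in sham and 684, 594, 848 and 607 bp in BCAS (log2 difference 0.20 ± 0.18 SE, adjusted p = 0.708). These came from a region over its start, shared with the overlapping gene Gm45717, whose highest point lay 471 to 522 bp upstream. The height of this region was 7.72 ± 0.96 in sham and 6.38 ± 0.71 in BCAS, a difference that did not pass (adjusted p = 0.389).

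Ifitm3, at chr7:141009586-141010770 on the minus strand, is the family member best known for restricting influenza virus. Its window covered 280, 276, 334 and 0 bp in sham and 679, 583, 347 and 324 bp in BCAS. After scaling every BCAS library was above every sham library, 222 ± 150 bp against 462 ± 125 bp, and 6.03% of all tested loci had groups separated in this direction. The log2 difference of 0.73 ± 0.30 (SE) did not pass adjustment over all loci (adjusted p = 0.243), and it was 0.58 within the higher and 1.65 within the lower GC class. Without sham 4, which had 0 bp, it was 0.40 (adjusted p = 0.461). The exact two-sided permutation test of this gene alone gave p = 0.0286, which is the smallest value that 4 against 4 allows. Any locus with separated groups gives this value, so it adds nothing to the separation. Most of the length came from a peak 199 bp beyond the end of the gene, present in every library but sham 4. BCAS 1 alone had a peak over the start, which spanned both ISRE cores, and BCAS 2 alone had a further downstream peak. Ifitm1, at chr7:140967221-140969825 on the plus strand, had 0 bp in all 8 libraries and was not tested.

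**Figure D4:**
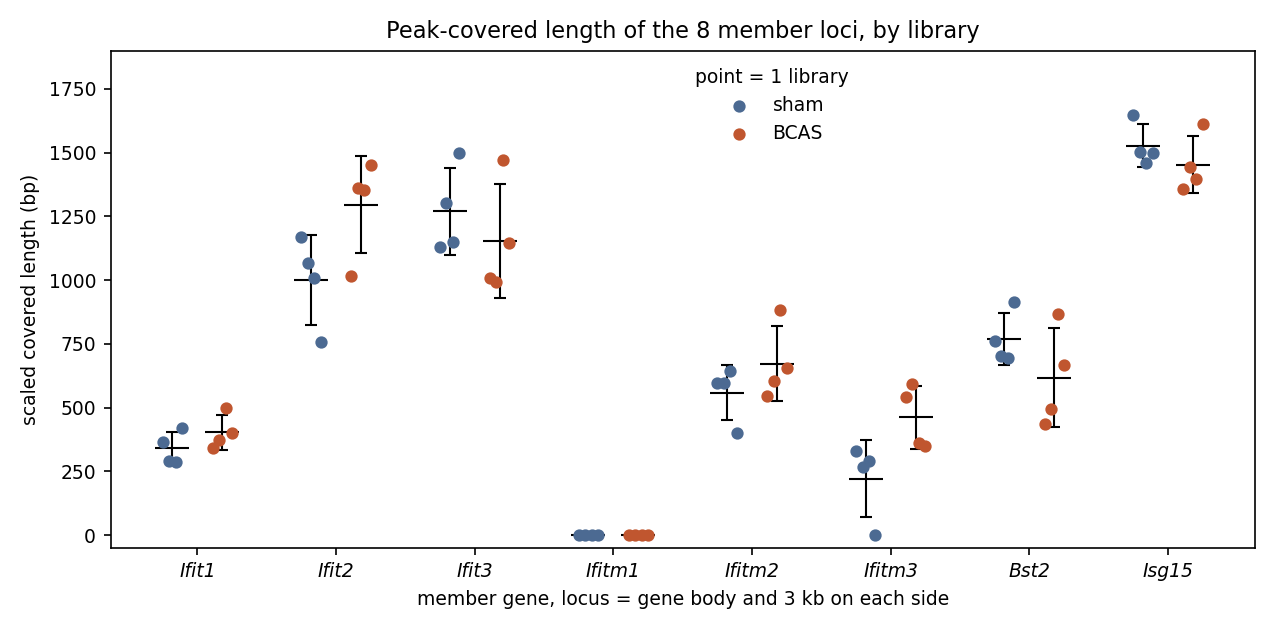
Covered length scaled to the library totals, in bp, for the 8 member loci (points, 1 per library, with the mean and SD of each group). Sham and BCAS points overlap at every member with peaks except Ifitm3, and Ifitm1 lies at 0 in all libraries.

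Between and around these genes the cluster looked different in the 2 groups. The stretch chr7:140945958-141020924, from 3 kb beyond Ifitm5 to 3 kb beyond Ifitm6, was set after the values were seen. It held 14 merged regions, covering 1053, 1254, 1797 and 653 bp in sham 1 to 4 and 4324, 3708, 3616 and 4093 bp in BCAS 1 to 4. Of these, 5 regions had a peak in all 4 BCAS libraries and in no sham library, a pattern found in 1.62% of all merged regions. No region had the opposite pattern, which 0.0945% of all regions showed. The test of covered length is given no weight for these 5 regions, because they entered it through the BCAS libraries alone.

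The longest of the 5, chr7:140998841-140999694, lay 11.5 kb from the start of Ifitm3, beyond its end and in no annotated gene. It was covered over 854, 653, 723 and 732 bp in BCAS 1 to 4, with a fold enrichment of 9.8, 7.5, 8.3 and 6.9. Its first 300 bases are printed because they hold the single ISRE core found in the 5 regions, in capitals.
Ifitm cluster, chr7:140998841-140999140, plus strand: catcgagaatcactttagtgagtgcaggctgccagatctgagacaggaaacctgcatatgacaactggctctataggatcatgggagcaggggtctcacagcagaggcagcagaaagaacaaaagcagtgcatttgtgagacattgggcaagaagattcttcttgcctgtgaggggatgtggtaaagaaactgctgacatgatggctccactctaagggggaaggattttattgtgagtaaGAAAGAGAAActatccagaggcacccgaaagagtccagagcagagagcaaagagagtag

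A second region, chr7:140997837-140998153, lay just beside it at 12.8 kb. One more, chr7:141016731-141017235, lay inside Ifitm6 and covered 330 to 469 bp in BCAS. It spanned the RefSeq promoter of Ifitm6 (chr7:141016843-141017142), which lies inside the GENCODE gene. The region held a GAS core within 100 bp of its middle, as did the one at chr7:140948302-140948643 and 6.87% of all merged regions. Away from its middle it held 2 copies of the composite core GGAANNGAAA, ccaaaaTTTCTGTTCCtgtttg (on the opposite strand) and gaagtgGGAAGTGAAAacagat. The other two lay beyond the end of Ifitm5, at chr7:140948302-140948643 and, within the neighbouring gene Pgghg, at chr7:140947004-140947378. A sixth region 19.97 kb from the start of Ifitm3 had a peak in the 4 BCAS libraries and in sham 3. Sham 4, the only sham library in the lower GC class, lacked all 6, and BCAS 1, the only BCAS library in the higher class, had all 6. Sham 4 also had the smallest covered total of the 8 libraries (44.5 Mb) and BCAS 1 the largest (66.3 Mb). Sham 1, 2 and 3 had 44.8, 54.9 and 60.8 Mb, and BCAS 2, 3 and 4 had 51.8, 50.8 and 48.9 Mb. The totals of sham 2 and sham 3 were thus larger than those of BCAS 2, 3 and 4. The part of list length in the presence of these 6 regions was not tested.

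**Figure D5:**
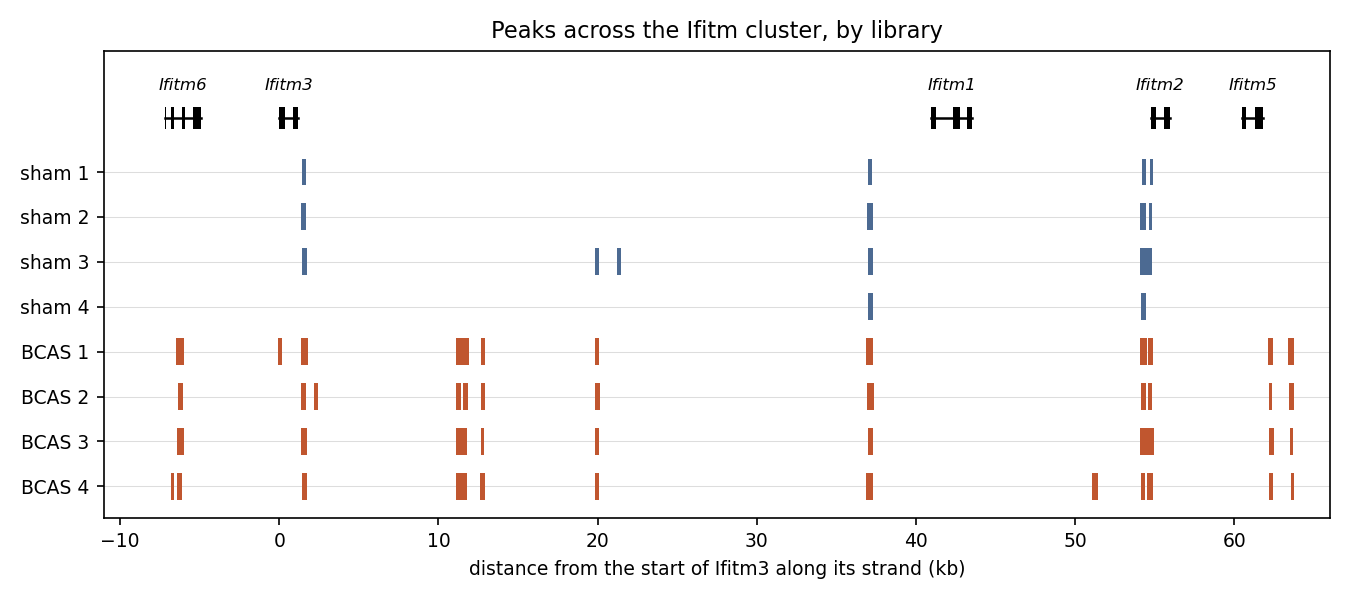
Peaks of each library (bars) across the Ifitm cluster, with genes drawn above and exons as boxes, against the distance from the start of Ifitm3 along its strand in kb. Bars near -6.2, 11.5, 12.8, 62.3 and 63.6 kb appear in the 4 BCAS libraries alone, and the region over the start of Ifitm2 is filled in every library.

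The flanking genes of the family showed this at the level of whole loci. Ifitm5, a bone-expressed family member, and Ifitm6 had 0 bp in every sham library and 430 to 670 and 330 to 591 bp in BCAS, so that no fold can be given. They reached the minimum length for testing through BCAS alone, and their calls are not counted as support. Ifitm10, further along the same chromosome and outside this stretch, had 1728 to 2160 bp in sham and 2866 to 3549 bp in BCAS (log2 difference 0.61 ± 0.11 SE, adjusted p = 0.0054). Thus 3 of the 7 other family genes were called longer, where 3.16% of all loci were longer. Without Ifitm5 and Ifitm6 this leaves Ifitm10, 1 of the 5 genes that reached the minimum length in sham. The difference from the share over all loci was not tested. Ifit1bl1, Ifit1bl2, Ifit3b and Ifitm7 were not called, at log2 differences between -0.24 and 0.17. Gm45717, which overlaps both Ifitm2 and Ifitm5, was called as well (0.87 ± 0.15 SE, adjusted p = 0.0031). Its window takes in the BCAS-only regions beyond the end of Ifitm5, so this call is not counted as support either. When the windows were widened to 10 kb on each side, Ifitm2 and Ifitm3 took in such regions and passed the test, at log2 differences of 0.98 and 1.62 (adjusted p = 0.0020 and 0.0016). Both calls reuse the peaks that BCAS libraries alone had, and they add nothing to the pattern of presence.

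Other interferon targets were tested in the same fit. Of 28 other interferon-stimulated effectors tested, of 32 listed, 7 had longer covered length in BCAS and none shorter, where 3.16% of all loci were longer. Oasl1 and Zbp1 reached the minimum length through BCAS alone, which leaves 5 of the 25 genes that reached it in sham. The median log2 difference was 0.45, that of the 7 members tested was 0.16 and that over all loci was 0.0014. At the share over all loci, 0 calls among 7 members is no contrast with this list, and the difference between the lists was not tested. The 7 were Oasl1 and Oasl2, which belong to the oligoadenylate synthetase family, Zbp1 and Ddx58, which sense nucleic acids, the guanylate-binding protein gene Gbp2, the nuclear body gene Sp100, and Trim30a. Oasl1 had 0 bp in every sham library and 299 to 1311 bp in BCAS, and the log2 differences of the others lay between 0.72 (Sp100) and 1.73 (Zbp1). Of 10 tested genes of 11 for interferon, its receptor and its transcription factors, none was called, and Stat2 and Irf9 had log2 differences of 0.00 and 0.23. Irf7, a factor that is itself induced by interferon, had 0 to 691 bp in sham and 471 to 1183 bp in BCAS (0.88 ± 0.35 SE, adjusted p = 0.218).

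Among tested genes more than 100 kb away, the covered length most like that of Ifit1 was found at Plekhf1, Tmem64 and Sh3bp2, that of Ifit2 at Nkx6-3, Gm45140 and Pou6f1, and that of Ifit3 at H2-Ke6, Vps16 and Pitrm1. For Ifitm2 these were Dhh, Slc22a7 and Mocos, for Ifitm3 Sppl3, Ctla2a and Tpbpa, for Bst2 Tmem198, Snx7 and Rad51ap2, and for Isg15 Gm3055, Wdr43 and Pnmal2. Pearson's r over the 8 libraries lay between 0.93 and 0.98 for these 21 pairs, which are the highest of 17035 genes each and share the same libraries.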

How the data were processed

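Cortex nuclei gave 1 ATAC-seq library for each of 8 mice, 4 sham and 4 BCAS, and the sample titles gave the groups. FastQC, Trim Galore, Bowtie2 2.3.4.3 (build mm10), SAMtools 1.9 and MACS2 are named in the submitters' processing notes and in the methods of the study, duplicates having been removed before the peak calls, which the authors made separately for every library. Options of MACS2, such as a shift of the reads, were not given in the sources used here. Each deposited list gives, per peak, a score, the fold enrichment over background (a ratio), a −log10 p, a −log10 q and the offset of the highest point. Read counts are no part of these lists. The depth under any peak is therefore unknown, and a longer list can reflect deeper sequencing as well as more open chromatin. The study's differential test used read counts, which were not used here, and covered length stood in for them.

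Peaks on 21 chromosomes were used (861 peaks on other sequences were left out). For each protein-coding gene of GENCODE vM21, the bases covered by peaks over the gene body and 3 kb on each side were summed and scaled to the mean covered total of the 8 libraries. A locus entered the test when its mean reached 200 bp. The fit was made with limma 3.58.1 in R 4.3.3 on log2(scaled bp + 200), with a trend of the variance and Benjamini-Hochberg adjustment over all 17035 loci, so that a fold change of a low locus is understated. Heights were log2 fold enrichments of the highest peak in regions called in all 8 libraries, quantile normalized and tested in the same way. The test of covered length for single regions called in at least 3 libraries was added after the data were seen. Scripts were tested on simulated data. The members, the gene lists and the motifs were chosen with earlier results of these data known. All 8 members, every list gene past an adjusted p of 0.05, the 3 genes with the most similar covered length per member (leaving out those within 100 kb) and the neighbours inside a member window were named. Usp18, Irf7, Stat2, Irf9 and the Ifitm stretch outside the member windows were picked after their values were seen. Coordinates are 1-based in mm10, and promoters of all 8 members matched the RefSeq table by symbol. Gene starts can differ between GENCODE and RefSeq. The classes of read GC content came from the quality control of the study. The p-values measure the spread between mice of 1 experiment.

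Replicate numbers were checked for pairing by the correlation of same-numbered libraries' deviations from their group means, which was -0.16, -0.01, -0.10 and 0.14. They did not pair the mice. Alternatives changed the q threshold, list length, scaling, pseudocount, low-value filter, window, gene set, covariates and libraries.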

Additional observations from a re-analysis of the deposited data

Results flagged for a closer look

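Of 30 groups of 4 libraries examined, 1 held a library far from the other three, and about 1 in 20 groups would do so by chance. Over the start of Ifit2, the lowest sham library had a normalized fold enrichment of 13.5, while the next sham library was at 15.3. The group difference at this peak did not pass the test with all libraries.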

How the results depend on the processing

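No member locus was called in any alternative, except Ifitm2 and Ifitm3 with windows of 10 kb. The exact permutation test of single genes, without adjustment, gave p = 0.0286 for Ifitm3. For the other tested members it gave p between 0.086 (Ifit2) and 0.343 (Ifit3). The value of Ifitm3 only restates that its groups did not overlap, and it is not counted as a call. The near-zero log2 differences of Ifit3 and Isg15 changed sign without a call. Ifit3 was at 0.041 with a deposited −log10 q of at least 5 and at 0.052 with lists of equal length. Isg15 was at 0.00034 and 0.040 in these settings, at 0.013 with no scaling and at 0.21 with 10 kb windows. The height over the end of Ifit3 changed sign with the within-library percentile (0.48 points), with read GC class in the model (0.17) and with a library left out (-0.10 to 0.13). Ifit1 passed by height when sham 4 was left out (adjusted p = 0.042). Presence rested on the rule of overlap: of the 8 member regions called in all libraries, 4 remained so when peaks had to cover at least 50% of the region.

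Over all loci, 602 were called, 538 longer and 64 shorter. This was 223 with no scaling (222 and 1), 244 with no minimum length, 190 with the promoter window, 253 with read GC class in the model and 310 to 756 with a library left out (382 without BCAS 1, 395 without BCAS 2 and 310 without BCAS 3). For heights, 1449 regions became 644 with percentiles, 325 with read GC class and 800 to 1592 with a library left out (800, 896 and 820 without sham 1, 2 and 3, and 839 and 888 without BCAS 3 and 4). For the covered length of single regions, 4015 became 120 with read GC class and 2597 to 5185 with a library left out, the lowest without sham 2. The replicate block gave 938 loci but 0 single regions (limma, with 11876 longer and 6884 shorter at an unadjusted p under 0.05), so that the call at Bst2 exon 3 was not made there, although the numbers do not pair the mice. Depth limits what absence of a peak can show.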

Other observations

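Ifnb1, the gene of interferon beta, lay under the minimum length and was not tested. Its window had no peak in any sham library and 265, 256, 216 and 248 bp of peaks in BCAS 1 to 4. Oas1a, another interferon target under the minimum, likewise had none in sham and 232, 210, 214 and 260 bp in BCAS. Both were picked after their values were seen. The share of gene windows with this pattern was not counted. Of all merged regions, 1.62% had a peak in all 4 BCAS libraries and in no sham library, and 0.0945% showed the opposite pattern.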
